A study of Mus musculus with 12 samples.

Results

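The activin, BMP and GDF15 axis was followed in whole hearts as 10 genes of the TGF-β superfamily and its secreted antagonists, chosen by symbol among the 53801 genes of the tables. They comprise the ligand genes *Inhba*, *Inhbb*, *Gdf15*, *Mstn*, *Bmp2*, *Bmp4* and *Bmp6*, and the antagonist genes *Fst*, *Fstl3* and *Grem1*. Each of the 10 was found, and 9 were among the 15306 genes that passed a filter on low counts and were tested. *Grem1* did not pass. RNA sequencing compared hearts of C57BL/6N mice after sham surgery, 1 day after acute myocardial infarction (AMI) and 7 days after AMI, from 4 hearts per group, which made 12 libraries. The operated mice were adult males, and AMI was made by tying off the left coronary artery under isoflurane, so that each AMI heart holds infarcted as well as surviving muscle. The day on which sham hearts were taken was not given in the sources used here, and no group carries a transgene. The labels name the libraries as separate samples without naming animals, so the spread reported below is that between these samples.

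Activins are dimers of the inhibin β subunits, which *Inhba* and *Inhbb* encode. They bind type II and type I activin receptors and pass the signal through SMAD2 and SMAD3, whereas BMPs pass it chiefly through SMAD1, SMAD5 and SMAD9. Follistatin (*Fst*) and follistatin-like 3 (*Fstl3*) bind activins and keep them from their receptors, and gremlin 1 (*Grem1*) does the same for BMP2 and BMP4. GDF15 is a stress-induced cytokine that is known as a circulating marker of cardiac injury and acts through the hindbrain receptor GFRAL. Myostatin (*Mstn*) restrains muscle growth.

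Library depth ran from 23204551 to 32166517 counts. Values are given as CPM, counts scaled to a common library size with edgeR's TMM factors, or, where levels of different genes are compared, as TPM, which also corrects for transcript length. Differentially expressed genes (DEGs) were those at least 2-fold apart with an FDR (Benjamini-Hochberg, over the genes tested) below 0.05 in edgeR's quasi-likelihood test. A count of 3 in a library was taken as its floor, and this floor covers counting error only. The 10 ventricular cardiomyocyte markers were above the floor, with a summed level between 96695 and 113043 CPM in sham hearts, 59356 and 73196 in day 1 AMI, and 50291 and 58519 in day 7 AMI. Summed CPM of 8 fibroblast markers ran from 1141 to 1394 in sham hearts, 1726 to 2361 on day 1 and 7020 to 14490 on day 7. Summed CPM of 8 neutrophil markers ran from 2.92 to 60.1, 47.8 to 169, and 8.38 to 39.5 in the same order. In whole-heart RNA, fewer cells of a type and less RNA per cell cannot be told apart, and the part of cell makeup in the results below was not tested.

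*Gdf15*, *Inhba*, *Fstl3* and *Inhbb* had the largest increases on day 1, and the 240 bases that precede their start sites, from 250 to 11 bases upstream, are shown for that reason. The sequences are those of the RefSeq promoter table on GRCm38.p6, read 5′ to 3′ on the strand of the gene, and the table held 8 of the 10 genes. Capitals mark matches on either strand to any of 6 motifs, namely the AP-1 motif TGANTCA, the cAMP response element TGACGTCA, the SMAD palindrome GTCTAGAC, the GC box GGGCGG, the TATA box TATAAA and the CCAAT box CCAAT.
Gdf15: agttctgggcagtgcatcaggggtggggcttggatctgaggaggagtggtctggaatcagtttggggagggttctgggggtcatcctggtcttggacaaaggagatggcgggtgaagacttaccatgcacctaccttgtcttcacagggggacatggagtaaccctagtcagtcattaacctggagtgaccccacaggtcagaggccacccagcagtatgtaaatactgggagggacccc
Inhba: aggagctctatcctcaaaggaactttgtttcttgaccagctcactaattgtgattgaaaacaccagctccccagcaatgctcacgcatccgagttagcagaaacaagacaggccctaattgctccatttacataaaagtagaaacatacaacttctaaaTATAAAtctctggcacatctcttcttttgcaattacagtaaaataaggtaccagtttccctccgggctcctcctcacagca
Inhbb: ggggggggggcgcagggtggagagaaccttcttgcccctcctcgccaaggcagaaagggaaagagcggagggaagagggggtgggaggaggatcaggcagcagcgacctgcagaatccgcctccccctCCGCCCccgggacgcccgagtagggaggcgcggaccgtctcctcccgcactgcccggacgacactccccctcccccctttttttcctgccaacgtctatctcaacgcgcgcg
Fstl3: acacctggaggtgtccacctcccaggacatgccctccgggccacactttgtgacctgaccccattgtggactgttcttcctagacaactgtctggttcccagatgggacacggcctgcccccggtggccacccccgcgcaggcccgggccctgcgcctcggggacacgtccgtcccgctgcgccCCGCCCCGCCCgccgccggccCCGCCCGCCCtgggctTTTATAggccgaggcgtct
The *Gdf15* stretch lies at chr8:70632467-70632706 on the minus strand, and none of the 6 motifs matched in it. A further RefSeq start of *Gdf15* lies 361 bases downstream, and counts per gene do not separate the starts. The *Inhba* stretch lies at chr13:16011601-16011840 on the plus strand and has a TATAAA match from 91 to 86 bases upstream. The *Inhbb* stretch lies at chr1:119422259-119422498 on the minus strand and has a GC box match from 122 to 117 bases upstream. The *Fstl3* stretch lies at chr10:79777024-79777263 on the plus strand and has 4 GC box matches, which overlap in pairs, and a TATAAA match from 29 to 24 bases upstream. GC content was 42.1% for *Inhba*, 55.8% for *Gdf15*, 68.8% for *Inhbb* and 71.2% for *Fstl3*, against a median of 52.1% over 32851 such stretches. Of those stretches, 31.3% held a GC box match, 12.1% TATAAA, 33.0% CCAAT, 6.58% the AP-1 motif, 1.44% the cAMP response element and 0.167% the SMAD palindrome. None of the 4 windows held a match to the AP-1, cAMP response element or SMAD motif. The RefSeq start of *Fstl3* lies within 2 bases of the GENCODE start.

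The genes lie apart from one another in the genome, on GRCm38 as GENCODE M21 annotates it. *Inhba* (ENSMUSG00000041324) spans chr13:16011851-16031621, *Inhbb* (ENSMUSG00000037035) chr1:119415465-119422248 and *Gdf15* (ENSMUSG00000038508) chr8:70629393-70632456. *Fst* (ENSMUSG00000021765) spans chr13:114452290-114458951 and *Fstl3* (ENSMUSG00000020325) chr10:79777272-79782630. *Mstn* (ENSMUSG00000026100) lies at chr1:53061640-53068079 and *Grem1* (ENSMUSG00000074934) at chr2:113746164-113758646. *Bmp2* (ENSMUSG00000027358) lies at chr2:133552159-133562885, *Bmp4* (ENSMUSG00000021835) at chr14:46383520-46390669 and *Bmp6* (ENSMUSG00000039004) at chr13:38345107-38500302. Exons of 4 of them overlap a gene on the opposite strand. The strand counted was not given in the sources used here, so reads from such a pair cannot be told apart. For *Fstl3* the shared part is 47.3% of its exon bases, with *Prss57*, which had between 1 and 7 counts in a library. For *Bmp6* it is 5.74%, with *Txndc5*, whose own counts ran from 952 to 5915 and whose log2 FC was 0.79 in day 1 AMI and 1.24 in day 7 AMI against sham. For *Bmp4* it is 3.96%, with *Gm15217* at 0 counts in every library, and for *Fst* 2.51%, with *Gm47040* at no more than 3 counts.

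Most of the axis was higher after AMI. Of the 9 genes tested, 6 rose from sham to day 1 AMI (*Gdf15*, *Inhba*, *Fstl3*, *Inhbb*, *Bmp2* and *Fst*) and 0 fell. Over all genes tested the shares were 7.79% higher and 2.98% lower. The genes of the axis were chosen with earlier results of these data known, so these counts are given as a description. On day 7, 5 of the 9 exceeded sham (*Gdf15*, *Fst*, *Inhba*, *Fstl3* and *Bmp2*) and 0 were below it, where 15.3% of all genes tested were higher and 5.88% lower. Among genes below sham, *Bmp6* was the one gene of the 9 at an unadjusted edgeR p under 0.05, on either day, and neither DESeq2 nor limma on TPM called a gene lower. From day 1 to day 7, *Fst* rose and *Fstl3* fell, and no other gene of the 9 was a DEG, where 8.55% of all genes tested rose and 2.69% fell. Without the FC minimum, 7, 3 and 6 of the 9 passed the FDR in the comparisons of day 1 AMI with sham, day 7 AMI with day 1 AMI, and day 7 AMI with sham, beside 41.8%, 47.0% and 59.3% of all genes tested. The median log2 FC of the 9 was 1.36 in day 1 AMI and 1.05 in day 7 AMI against sham, and that of all genes tested −0.01 and 0.03. Both comparisons with sham use the same 4 sham hearts. On library sizes alone, without TMM factors, the split of higher to lower genes was 1764 to 217 on day 1 against sham, where TMM factors gave 1192 to 456, and 3633 to 318 on day 7, where TMM factors gave 2346 to 900. On that scale the median of all genes tested moved to 0.26 in day 1 AMI and 0.42 in day 7 AMI against sham, and to 0.15 from day 1 to day 7. Fold changes below are relative to the TMM scale.

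**Figure D1:**
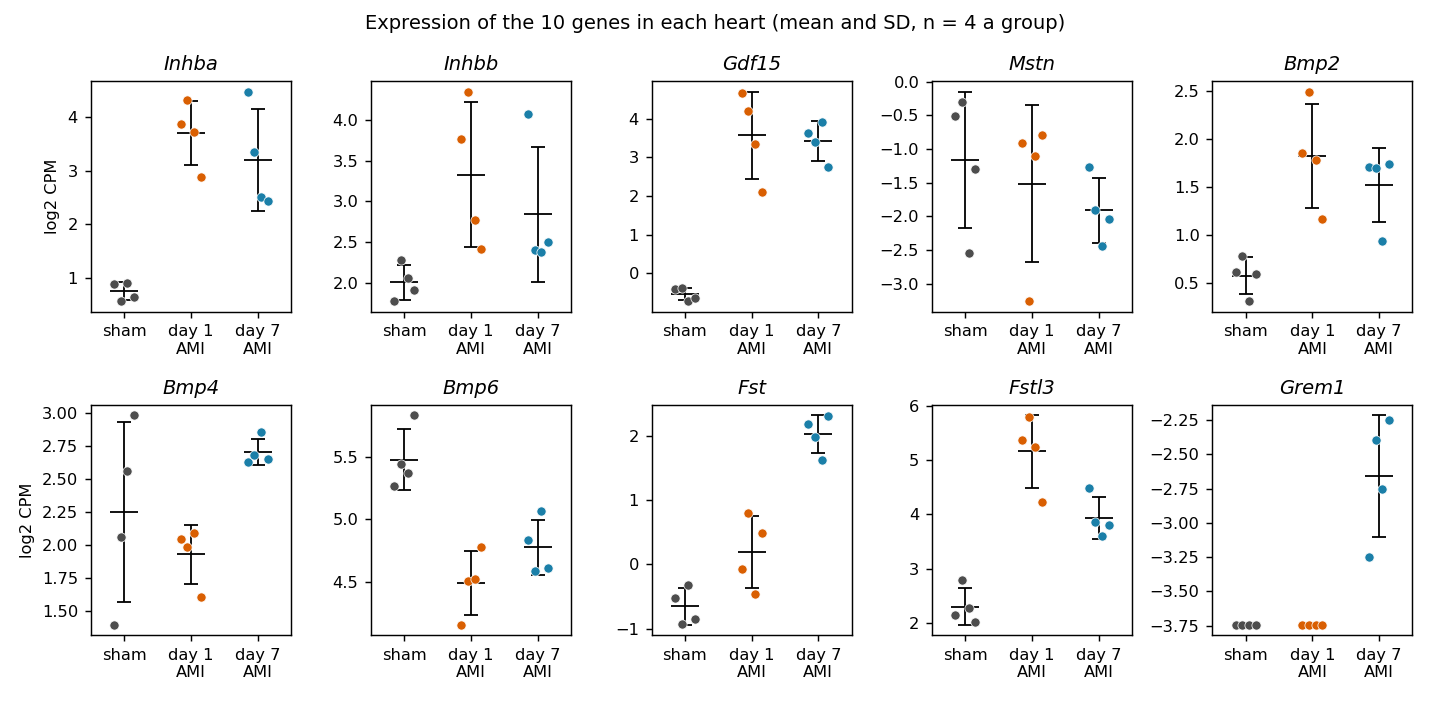
Log2 CPM (y axis, prior count of 2, each panel on its own scale) of the 10 genes in the 12 hearts, with points for hearts and bars for the group mean and SD (n = 4). *Inhba*, *Gdf15* and *Fstl3* in AMI hearts sat above every sham heart, *Fst* was highest on day 7, and *Grem1* libraries with 0 counts sat at −3.75.

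The activin subunit gene *Inhba* was low in sham hearts and rose on day 1. Its level was 1.77, 1.40, 1.79 and 1.48 CPM in the 4 sham hearts, 14.7, 20.0, 13.2 and 7.28 in day 1 AMI, and 22.3, 10.1, 5.64 and 5.31 in day 7 AMI. Every AMI heart was above every sham heart, and the day 1 and day 7 hearts overlapped. Day 1 AMI was 8.57-fold higher than sham (log2 FC 3.10, SE 0.46, edgeR FDR = 0.00018) and day 7 AMI 6.76-fold higher (log2 FC 2.76, SE 0.46, edgeR FDR = 0.000141). Between day 1 and day 7 its log2 FC was −0.34 (SE 0.39, edgeR FDR = 0.489). The day 7 mean of 10.8 CPM leaned on replicate 1. Without that library the log2 FC was 2.12 against sham (edgeR FDR = 0.000124) and −0.98 against day 1 AMI (edgeR FDR = 0.0164).

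*Inhbb*, the other β subunit gene, was present in sham hearts and had smaller FCs than *Inhba*. It stood at 3.34, 4.76, 4.07 and 3.68 CPM in sham hearts, 13.6, 20.4, 6.77 and 5.27 on day 1 and 16.8, 5.22, 5.13 and 5.58 on day 7. AMI hearts did not overlap sham hearts at either time, and 3 of the 4 day 7 hearts lay just above the highest sham heart. Day 1 AMI was 2.89-fold higher than sham (log2 FC 1.53, SE 0.45, edgeR FDR = 0.0148). This call rested on day 1 replicate 2, without which the log2 FC was 1.10 (edgeR FDR = 0.0633). For day 7 AMI against sham the log2 FC was 1.05 (SE 0.45, edgeR FDR = 0.0605), and without day 7 replicate 1 it was 0.42 (edgeR FDR = 0.365). Without that same library *Inhbb* was a DEG from day 1 to day 7, at a log2 FC of −1.12 (edgeR FDR = 0.0242). *Inha*, which encodes the inhibin α subunit and was chosen here after its values were seen, stood at 6.00 ± 1.26 CPM (SD, n = 4) in sham hearts, 4.54 ± 0.79 on day 1 and 5.09 ± 0.77 on day 7 and was not a DEG in any comparison.

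*Gdf15* had the largest FC of the 9. It was at 0.678, 0.698, 0.534 and 0.574 CPM in sham hearts, which is 11 to 17 counts a library. It was at 25.0, 18.4, 10.1 and 4.19 CPM in day 1 AMI and 12.4, 10.4, 15.1 and 6.60 in day 7 AMI. The sham hearts lay close together and far below every AMI heart, whereas day 1 hearts spread widely. Day 1 AMI was 22.98-fold higher than sham (log2 FC 4.52, SE 0.53, edgeR FDR = 4.17e-05), and day 7 AMI 17.7-fold higher (log2 FC 4.15, SE 0.53, edgeR FDR = 1.29e-05). The day 1 to day 7 log2 FC of −0.37 (SE 0.39, edgeR FDR = 0.449) changed sign without day 1 replicate 1 and on the TPM scale. Of 5 genes listed as inducers of *Gdf15*, *Atf3* and *Egr1* were DEGs on day 1 against sham, and *Atf3*, *Egr1* and *Trp53* on day 7, all higher. Of all genes tested, 7.79% and 15.3% were higher at these times, and the part of the listed inducers in the *Gdf15* values was not tested. *Gfral*, the GDF15 receptor gene, had 0 counts in every library.

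*Mstn* was scarcely detected. Its counts were 12, 18, 2 and 7 in sham hearts, 12, 1, 12 and 16 on day 1 and 11, 5, 3 and 5 on day 7. The groups overlapped, with at least 1 library of each at or near the floor of 3 counts. The log2 FC was −0.40 (SE 0.62) in day 1 AMI and −1.12 (SE 0.66) in day 7 AMI against sham (edgeR FDR = 0.625 and 0.163). Summed CPM of 9 skeletal muscle markers ran from 106 to 584 in sham hearts, 338 to 1246 on day 1 and 541 to 992 on day 7. Only 5 of the 9 passed the filter, so the sum rests on few genes. Whether it reflects skeletal muscle, and its part in the *Mstn* values, was not tested.

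The BMP genes did not move together. *Bmp2* was at 1.46, 1.64, 1.16 and 1.43 CPM in sham hearts, 3.56, 5.58, 3.37 and 2.18 on day 1 and 3.21, 3.17, 1.84 and 3.27 on day 7. Each AMI heart exceeded each sham heart. The increase was 2.57-fold in day 1 AMI (log2 FC 1.36, SE 0.28, edgeR FDR = 0.00171) and 2.01-fold in day 7 AMI (log2 FC 1.01, SE 0.28, edgeR FDR = 0.007). The day 7 value sat at the FC minimum and fell just under it without sham replicate 3 or without day 7 replicate 1, 2 or 4, at log2 FCs from 0.92 to 0.96.

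*Bmp6*, best known as an inducer of hepcidin, was by far the most abundant of the ligand genes in sham hearts and was lower on day 1. It was at 38.4, 43.3, 41.2 and 56.9 CPM in sham hearts, 17.7, 22.7, 22.9 and 27.3 on day 1 and 28.4, 24.0, 33.3 and 24.4 on day 7. On this scale no AMI heart reached the lowest sham heart. The decrease was 1.98-fold in day 1 AMI (log2 FC −0.99, SE 0.15, edgeR FDR = 0.000218) and 1.63-fold in day 7 AMI (log2 FC −0.71, SE 0.15, edgeR FDR = 0.000974), past the FDR but short of the FC minimum. The day 7 value did not pass the FDR on other scales, with a log2 FC of −0.31 on library sizes alone (edgeR FDR = 0.0926) and −0.19 on log2(TPM + 0.1) (limma FDR = 0.347), and on TPM the sham and day 7 hearts overlapped, from 12.99 to 21.5 and from 11.3 to 16.9. The day 1 value passed it on each of these scales, at log2 FCs from −0.81 to −0.72. Leaving out sham replicate 1, 2 or 3 or day 1 replicate 4 took the day 1 value past 2-fold, at log2 FCs from −1.09 to −1.01. Of the 10 ventricular cardiomyocyte markers, 0 were DEGs on day 1 and 7 were lower on day 7 against sham, where 2.98% and 5.88% of all genes tested were lower. On each day 9 of the 10 passed the FDR alone, beside 41.8% and 59.3% of all genes tested. The median log2 FC of the markers was −0.58 and −1.09, and their part in the *Bmp6* values was not tested.

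*Bmp4*, a ligand of developing and vascular tissue, followed another course. It was at 2.56, 4.11, 5.82 and 7.84 CPM in sham hearts, 4.05, 3.88, 4.19 and 2.96 on day 1 and 6.13, 6.34, 7.16 and 6.22 on day 7. Sham hearts spread widely and overlapped both AMI groups, while day 7 hearts stood above day 1 hearts. The log2 FC from day 1 to day 7 was 0.78 (SE 0.25, edgeR FDR = 0.0196), past the FDR but not the FC minimum, and 0.67 without day 1 replicate 4 (edgeR FDR = 0.0596). Against sham it was −0.43 (SE 0.25, edgeR FDR = 0.189) in day 1 AMI and 0.35 (SE 0.25, edgeR FDR = 0.249) in day 7 AMI. These passed the FDR without sham replicate 1 on day 1 (−0.65, edgeR FDR = 0.0216) and without sham replicate 4 on day 7 (0.63, edgeR FDR = 0.0299). Summed CPM of 7 endothelial markers lay between 944 and 1067 in sham hearts, 733 and 789 on day 1 and 1167 and 1304 on day 7. From day 1 to day 7, 6 of the 7 passed the FDR alone, beside 47.0% of all genes tested. Of the 7, 1 was a DEG and higher, beside 8.55% of all genes tested. The median log2 FC of these markers was 0.61, and their part in the *Bmp4* values was not tested. The authors' TPM for this gene went further, with 3.60 ± 1.06 (SD, n = 4) in sham hearts, 3.09 ± 0.57 on day 1 and 8.63 ± 2.63 on day 7. On log2(TPM + 0.1) *Bmp4* was a DEG against both, at log2 FCs of 1.23 against sham (limma FDR = 0.000594) and 1.42 against day 1 AMI (limma FDR = 0.000588). On that scale the median of all genes was itself 0.55 and 0.22, and why counts and TPM differ for *Bmp4* was not tested.

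**Figure D2:**
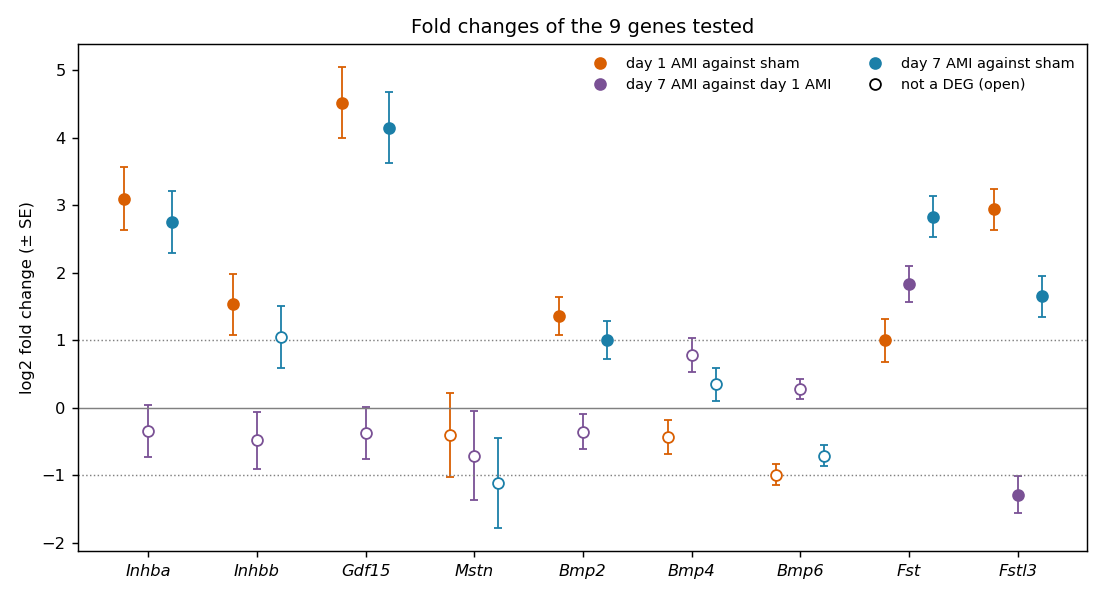
Log2 FC (y axis, ± SE from edgeR) of the 9 genes tested in 3 comparisons, with filled points for DEGs, open points for other values and dotted lines at an FC of 2. *Fst* and *Fstl3* moved in opposite directions from day 1 to day 7, and *Bmp6* on day 1 lay just inside the dotted line.

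The activin antagonist genes took different courses from day 1 to day 7. *Fstl3* was at 4.33, 6.82, 4.75 and 3.97 CPM in sham hearts, 41.2, 55.7, 38.0 and 18.6 on day 1 and 22.3, 14.4, 12.1 and 13.9 on day 7. All AMI hearts lay above all sham hearts. Day 1 AMI was 7.68-fold higher than sham (log2 FC 2.94, SE 0.30, edgeR FDR = 2.03e-05) and day 7 AMI 3.14-fold higher (log2 FC 1.65, SE 0.30, edgeR FDR = 0.000298). From day 1 to day 7 *Fstl3* fell 2.44-fold (log2 FC −1.29, SE 0.27, edgeR FDR = 0.00164), although the lowest day 1 heart was below the highest day 7 heart. On the log2(TPM + 1) scale that log2 FC was −0.94, which is short of the FC minimum.

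*Fst* was low in sham and rose mostly between day 1 and day 7. It was at 0.626, 0.452, 0.728 and 0.478 CPM in sham hearts, 0.879, 1.67, 0.654 and 1.32 on day 1 and 4.50, 3.86, 3.03 and 4.86 on day 7. Day 7 hearts were apart from all others, and 1 day 1 heart was within the sham range. The log2 FC was 1.83 from day 1 to day 7 (SE 0.27, edgeR FDR = 9.8e-05) and 2.83 from sham to day 7 (SE 0.30, edgeR FDR = 2.81e-06), or 3.56-fold and 7.12-fold. In day 1 AMI against sham it was 1.00 (SE 0.32, edgeR FDR = 0.0215), at the FC minimum. This day 1 call was lost without sham replicate 2 or 4 or day 1 replicate 2 or 4, with log2 FCs from 0.75 to 0.93.

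*Grem1* was not detected in sham or day 1 AMI hearts, where it had 0 counts in 8 of 8 libraries, and had 1, 3, 2 and 4 counts in the day 7 AMI libraries. A count of 0 allows up to 3 counts, which is between 0.0895 and 0.156 CPM in these 8 libraries. The day 7 counts reached 0.136 CPM at most, and no FC is given.

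**Figure D3:**
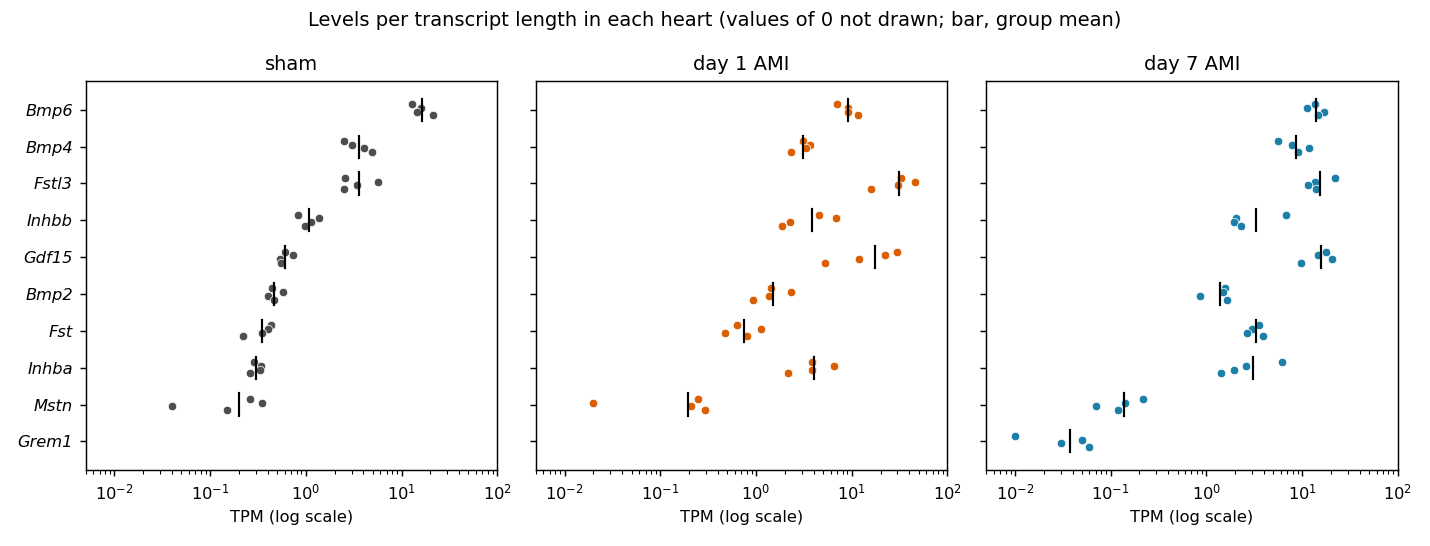
TPM (x axis, log scale) of the 10 genes in each heart by group, in the order of the sham means, with a bar at the group mean and values of 0 not drawn. *Bmp6* led in sham hearts, and the group means of *Fstl3* and *Gdf15* were above its own on both days after AMI. In day 1 replicate 4 *Gdf15* (5.28 TPM) was below *Bmp6* (11.5 TPM). In day 7 replicate 4 *Gdf15* (9.8 TPM) and *Fstl3* (13.9 TPM) were below *Bmp6* (14.6 TPM). In day 7 replicate 3 *Fstl3* (11.5 TPM) was below *Bmp6* (16.9 TPM).

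Compared per transcript length, the order of the genes changed after AMI. In sham hearts *Bmp6* led at 16.3 ± 3.70 TPM (SD, n = 4), apart from *Bmp4* at 3.60 ± 1.06 and *Fstl3* at 3.55 ± 1.48, whose ranges overlapped each other. *Inhbb* at 1.08 ± 0.23 TPM stood below these and above *Gdf15*, *Bmp2*, *Fst*, *Inhba* and *Mstn*, which followed from 0.608 to 0.200 TPM with each range overlapping the next. In day 1 AMI *Fstl3* stood at 31.4 ± 12.5 TPM and *Gdf15* at 17.4 ± 10.9, and the ranges of *Fstl3*, *Gdf15* and *Bmp6* (9.22 ± 1.84) each overlapped the next. *Inhba* at 4.08 ± 1.81 TPM and *Inhbb* at 3.88 ± 2.34 followed and did not differ beyond their spread. In day 7 AMI *Gdf15*, *Fstl3*, *Bmp6* and *Bmp4* held the first 4 places, from 15.8 to 8.63 TPM, with each range overlapping the next. *Fst* at 3.28 ± 0.54 TPM had by then the level of *Inhbb* (3.27 ± 2.32) and *Inhba* (3.06 ± 2.18).

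A ratio of a pair of genes in the same heart takes both from the same library, and 4 such ratios were compared in the 3 pairs of groups, which made 12 tests. Each ratio is a difference in log2 CPM, not corrected for transcript length, so its sign does not rank the levels of the pair. As TPM over TPM, the median of *Inhba* to *Fst* was 0.896 in sham hearts, 5.93 on day 1 and 0.799 on day 7. That of *Inhba* to *Inhbb* was 0.277, 1.05 and 0.961 in the same order. The smallest p that 4 hearts against 4 allow is 0.0286, and adjusted over the 12 tests none passed 0.05. The log2 ratio of *Inhba* to *Inhbb* was −1.26 ± 0.35 (SD, n = 4) in sham hearts, 0.37 ± 0.44 on day 1 and 0.35 ± 0.44 on day 7. The sham hearts lay below all AMI hearts (exact two-sided permutation test, p = 0.0286 at each time, adjusted p = 0.0571). The log2 ratio of *Inhba* to *Fst* was 1.40 ± 0.13 in sham hearts, 3.51 ± 0.79 on day 1 and 1.17 ± 0.91 on day 7. Day 1 was apart from both other groups (exact two-sided permutation test, p = 0.0286, adjusted p = 0.0571), and sham and day 7 overlapped (exact p = 0.629, adjusted p = 0.754). The log2 ratio of *Inhba* to *Fstl3* was −1.56 ± 0.45 in sham and −1.46 ± 0.08 in day 1 AMI, a difference of 0.10 (exact two-sided permutation test, p = 0.943), and −0.74 ± 0.61 in day 7 AMI (exact p = 0.0857 against sham and 0.0571 against day 1, adjusted p = 0.129 and 0.098). Across the 4 day 1 hearts this ratio stayed between −1.52 and −1.35 while each gene varied more than 2-fold. The log2 ratio of *Bmp2* to *Bmp4* was −1.68 ± 0.78 in sham hearts, −0.10 ± 0.42 on day 1 and −1.18 ± 0.49 on day 7, with day 1 above both (exact two-sided permutation test, p = 0.0286, adjusted p = 0.0571).

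**Figure D4:**
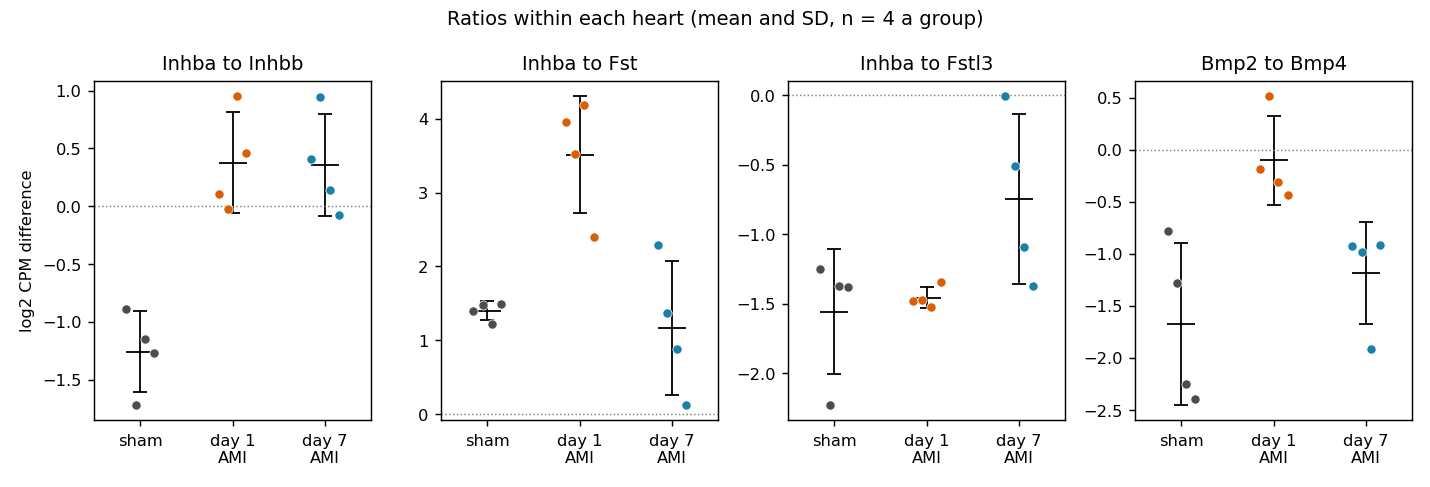
Difference in log2 CPM between a pair of genes in the same heart (y axis) by group, with points for the hearts and bars for the mean and SD (n = 4). *Inhba* to *Fst* was highest on day 1, and *Inhba* to *Fstl3* was nearly constant over the 4 day 1 hearts, between −1.52 and −1.35.

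Within groups, some hearts held the extreme value for several genes. Of the 9 genes, sham replicate 2 was the highest sham heart for 5 (*Inhbb*, *Gdf15*, *Mstn*, *Bmp2* and *Fstl3*), and it also had the highest sum of 6 erythroid markers, 4462 CPM against 491 to 1181 in the other sham hearts, and the highest sum of neutrophil markers of its group, 60.1 CPM. For day 1, day 1 replicate 2 was the highest day 1 heart for 5 (*Inhba*, *Inhbb*, *Bmp2*, *Fst* and *Fstl3*). Day 1 replicate 4 was the lowest for 6 (*Inhba*, *Inhbb*, *Gdf15*, *Bmp2*, *Bmp4* and *Fstl3*) and the highest for *Mstn* and *Bmp6*. It had the highest summed fibroblast markers of its group, 2361 CPM against 1726 to 2200. Day 1 replicate 2 also had the highest summed neutrophil markers of its group, 169 CPM against 47.8 to 89.6 in the other 3. Day 7 replicate 1 was the highest day 7 heart for *Inhba*, *Inhbb*, *Mstn* and *Fstl3* and had the highest summed fibroblast markers, 14490 CPM against 7020 to 9732. It also had the highest sums of macrophage, endothelial, and smooth muscle and pericyte markers of its group, at 727, 1304 and 1589 CPM. Day 7 replicate 3 was the lowest for 5 (*Inhbb*, *Mstn*, *Bmp2*, *Fst* and *Fstl3*). Infarct size by heart was not analysed here, and the part of these markers in the values of single hearts was not tested.

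The genes nearest to each member in pattern were found by the root mean square difference of centred log2 CPM over the 12 hearts, given here as a description. *Fstl3* lay nearest to *Atf3* (0.214), *Tnfrsf12a* (0.238) and *Pdpn* (0.262), where the median over all genes compared was 1.28. *Fst* lay nearest to *C1qtnf6* (0.244), *Fbn1* (0.264) and *Adamts2* (0.278), with a median of 1.19. *Inhba* was followed most closely by *Bcat1* (0.368), *Ptgs2* (0.383) and *Tubb2b* (0.412), and *Inhbb* by *Angpt2* (0.350), *Ier5* (0.388) and *Itga5* (0.392). *Gdf15* was followed by *Ereg* (0.601), *Il6* (0.639) and *Lgals3* (0.640), with a median of 2.00 over all genes compared. *Bmp2* was nearest to *Sema3f* (0.222), *Trim16* (0.230) and *G6pdx* (0.233), and *Bmp6* to *Wdr45* (0.153), *Snrk* (0.162) and *Ctsf* (0.163). *Bmp4* was nearest to *Stox1* (0.208), *Sh2d3c* (0.209) and *Cd1d1* (0.211), and *Mstn*, with its few counts, to *Rslcan18* (0.576), *AC123870.1* (0.592) and *Lrp2bp* (0.613). The medians over all genes compared were 1.43 for *Inhba*, 0.881 for *Inhbb*, 0.703 for *Bmp2*, 0.543 for *Bmp6*, 0.583 for *Bmp4* and 0.908 for *Mstn*. Each difference is to be read beside the median of its own gene.

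The rest of the pathway was read from 94 further genes, of which 72 were tested. A few genes stand in more than 1 list. Of the 72, 10 rose and 2 fell from sham to day 1 AMI, where 7.79% and 2.98% of all genes tested did. From sham to day 7 AMI 20 rose and 3 fell, beside 15.3% and 5.88% of all genes tested, and between day 1 and day 7, 9 rose and 3 fell, beside 8.55% and 2.69%. Lists this short hold few DEGs at such shares, and their counts are given as a description. Of 14 receptor and coreceptor genes tested, 0 were DEGs on day 1 against sham and 1 on day 7, when 7 of the 14 passed the FDR alone beside 59.3% of all genes tested. The DEG was *Hfe2*, which encodes the BMP coreceptor hemojuvelin. *Hfe2* was at 297 ± 18.5 CPM (SD, n = 4) in sham and 144 ± 2.82 in day 7 AMI (log2 FC −1.05, SE 0.12, edgeR FDR = 5.41e-06). In that comparison DESeq2 called 1 receptor gene lower, whereas limma on either TPM scale called 0 lower and 1 higher. The 10 ventricular cardiomyocyte markers had a median log2 FC of −1.09 there, and their part in the *Hfe2* values was not tested. Of 10 SMAD and SMURF genes, 0 were DEGs in any comparison. Their log2 FCs ran from −0.95 (*Smad9*) to 0.36 (*Smad2*) on day 1 and from −0.25 (*Smad9*) to 0.95 (*Smad1*) on day 7 against sham. On these days 3 and 4 of the 10 passed the FDR alone, beside 41.8% and 59.3% of all genes tested. At an unadjusted edgeR p under 0.05 stood 4 SMAD and SMURF genes on each day, and 6 receptor genes on day 1 (2 higher and 4 lower). DESeq2 called 0 SMAD and SMURF genes, and limma on log2(TPM + 0.1) called 2 higher on day 7. For receptors on day 1 DESeq2 and limma called 0. These 3 SMAD genes were named after their values were seen.

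Of 9 other ligand genes tested, 2 were higher and 2 lower on day 1 against sham, beside 7.79% and 2.98% of all genes tested. On day 7 against sham 3 were higher and 1 lower, beside 15.3% and 5.88%. Among these genes, *Gdf6*, a BMP family member, rose at each step. Its CPM lay between 0.53 and 0.83 in sham hearts, between 2.96 and 5.13 on day 1 and between 8.26 and 17.7 on day 7 (log2 FC 2.48 and then 1.54, SE 0.31 and 0.24, edgeR FDR = 5.91e-05 and 0.000178). *Gdf11* exceeded sham on day 7 (log2 FC 1.17, SE 0.24, edgeR FDR = 0.00088). *Gdf3* was also higher than sham at both times but had at most 24 counts in a library and was named after its values were seen. *Bmp7* fell from sham to day 1 (log2 FC −1.41, SE 0.24, edgeR FDR = 0.000445). *Bmp10*, an atrial ligand, was lower than sham at both times (edgeR FDR = 0.0298 and 0.00453), but the sham hearts ranged from 0.097 to 66.3 CPM and overlapped the AMI hearts. The heart with 66.3 CPM, sham replicate 4, also had the highest sum of 6 atrial markers in its group, 916 CPM against 105 to 240, and *Bmp10* is one of those markers.

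Of 17 antagonist and processing genes tested, 1 rose from sham to day 1, *Tll1*, which was named after its values were seen (log2 FC 1.01, SE 0.38, edgeR FDR = 0.046). Of all genes tested, 7.79% rose from sham to day 1. On day 7, *Fstl1*, *Bmp1*, *Kcp* and *Nbl1* exceeded both sham and day 1. Of the 17, 4 were higher than sham and 1 lower on day 7, beside 15.3% and 5.88% of all genes tested. *Fstl1*, a secreted follistatin-like glycoprotein, stood at 102 ± 16.6 CPM (SD, n = 4) in sham hearts, 174 ± 28.1 on day 1 and 843 ± 165 on day 7 (log2 FC 3.05 against sham, SE 0.17, edgeR FDR = 1.25e-08). *Bmp1*, a procollagen and chordin protease, *Kcp*, a BMP modulator, and *Nbl1*, a BMP antagonist, had log2 FCs of 1.80, 1.63 and 1.10 in day 7 AMI against sham. *Tll2*, also named after its values were seen, was lower (log2 FC −1.32, SE 0.46, edgeR FDR = 0.0237).

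Of 10 genes listed as BMP targets, *Id2*, a helix-loop-helix inhibitor of differentiation, was the only edgeR DEG against sham, in day 7 AMI (log2 FC 1.16, SE 0.16, edgeR FDR = 2.86e-05). For this list limma on either TPM scale called 1 gene higher on day 1 and 2 on day 7. *Hamp*, the hepcidin gene, fell from day 1 to day 7 (log2 FC −1.84, SE 0.65, edgeR FDR = 0.0308), from a mean of 2.20 CPM to 0.609 with overlapping groups. Of 8 genes listed as targets of activin and TGF-β signalling, 4 rose from sham to day 1 and 6 from sham to day 7, where 7.79% and 15.3% of all genes tested rose. *Ctgf*, a matricellular protein gene, was higher than sham at both times (log2 FC 2.59 and 2.66). *Postn* and *Ltbp2*, genes of the extracellular matrix, were higher on day 1 (log2 FC 1.76 and 2.31) and higher again on day 7 (log2 FC 5.99 and 5.90 against sham). Of 8 fibroblast markers, 3 were higher on day 1 and 5 on day 7 against sham, with a median log2 FC of 0.41 and 1.86, and their part in these values was not tested. All 3 TGF-β isoform genes exceeded sham on day 7, with *Tgfb3* at a log2 FC of 2.50, *Tgfb2* at 1.56 and *Tgfb1*, at the FC minimum, at 1.00. DESeq2 called 2 of the 3, and *Tgfb2* was a DEG already on day 1 (log2 FC 1.94). *Atf3*, a stress-response transcription factor gene, had log2 FCs of 2.97 on day 1 and 1.71 on day 7 against sham, *Egr1* 1.23 and 1.21, and *Trp53* 1.08 on day 7.

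**Figure D5:**
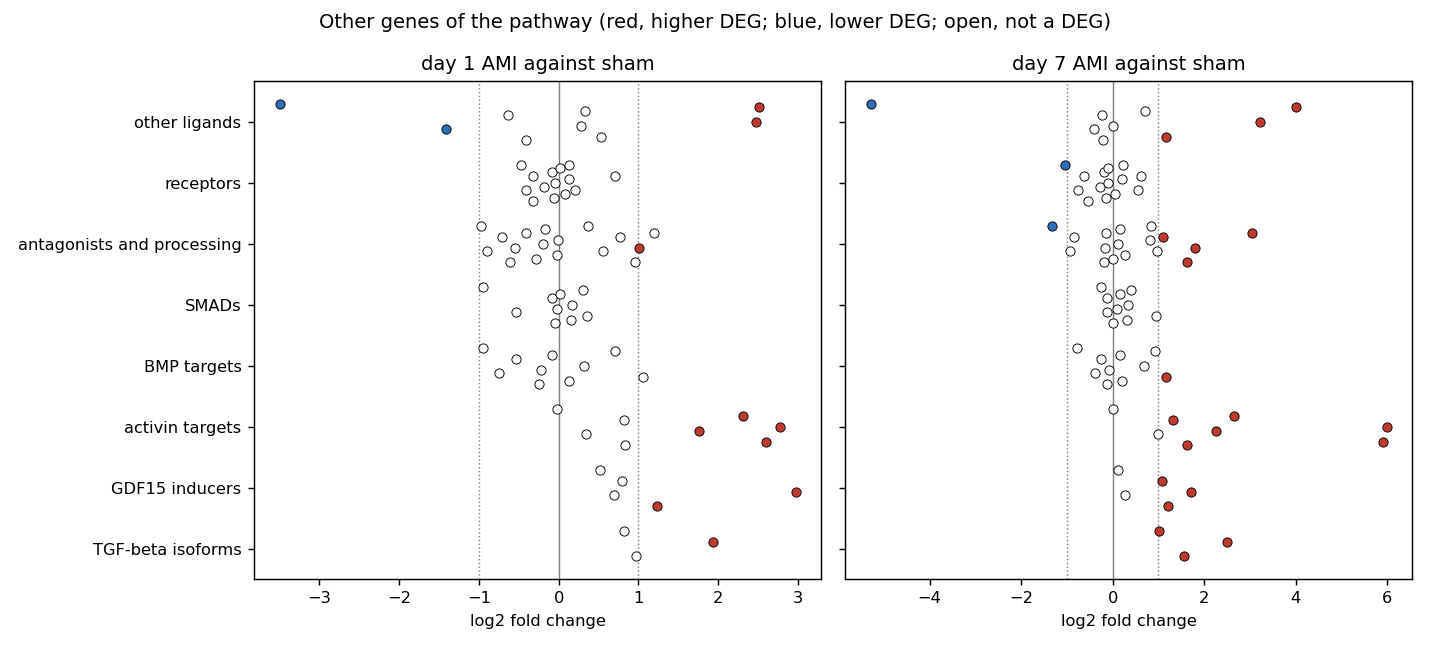
Log2 FC (x axis) against sham of other tested pathway genes by list, with day 1 AMI on the left and day 7 AMI on the right, red for genes higher and blue for genes lower among DEGs, and open points for other genes. No SMAD gene passed an FC of 2 in either panel, and *Postn* and *Ltbp2* reached log2 FCs of 5.99 and 5.90 on day 7.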

How the data were processed

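RNA of 12 whole mouse hearts was analysed, 4 in each of the sham and both AMI groups, as labelled. The authors aligned paired-end reads to GRCm38 with STAR. They deposited a table of counts, whole numbers of reads per gene with no normalization, and a table of TPM from RSEM, which the authors scaled for transcript length and library size. The counter behind the counts, the strand counted and the treatment of reads shared by several genes were not given in the sources used here.

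Counts were tested with edgeR 4.0.16 (TMM, filterByExpr, quasi-likelihood test, 1 fit of 3 groups) in R 4.3.3. SEs are those implied by the F statistic, and log2 CPM used a prior count of 2. Depth ran from 23204551 to 32166517 counts, and libraries of a group differed beyond sampling noise (chi-square per degree of freedom at least 8.92). The 10 genes and the gene lists were chosen with earlier results of these data known. Genes outside the 10 were named by a rule: up to 4 DEGs per list with the largest FC and a mean of at least 1 CPM, and the 3 nearest in pattern to each gene tested, with exceptions stated where they occur. A gene named by this rule is not reported here. Ratios were compared by exact permutation tests. Alternatives used DESeq2 1.42.0 and limma 3.58.1 (for genes that reached 1 TPM in 4 or more libraries), other scalings and filters, a replicate block and each library left out. The code was tested on simulated data. Locations come from GENCODE M21, promoters from RefSeq. Figures were drawn with matplotlib 3.10.9.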

Additional observations from a re-analysis of the deposited data

Results flagged for a closer look

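In 27 groups of 4 hearts, the 9 tested genes in 3 groups each, the gap of the highest or lowest heart to its nearest neighbour was divided by the range of the group and compared with Dixon's critical value. Chance alone marks about 1 group in 20, and 3 groups were marked here. For *Inhbb* in day 7 AMI, replicate 1 stood at 4.076 log2 CPM and the other 3 hearts between 2.379 and 2.499, a gap of 0.93 of the range. This heart also had the highest sums of the 12 for fibroblast (14490 CPM), macrophage (727 CPM), endothelial (1304 CPM) and smooth muscle and pericyte markers (1589 CPM). It was not the highest for the other marker sums, and the part of these markers in the *Inhbb* value was not tested. For *Mstn* in day 1 AMI, replicate 2 stood at −3.26 log2 CPM, from a single count, and the others between −1.098 and −0.7882, a gap of 0.875. For *Bmp2* in day 7 AMI, replicate 3 stood at 0.9405 log2 CPM and the others between 1.697 and 1.74, a gap of 0.947. *Bmp2* in that heart was above the highest sham heart, at 1.84 against 1.64 CPM.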

How the results depend on the processing

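With all 12 libraries kept, 188 of the log2 FCs of single genes and alternatives kept their direction and stayed DEGs or stayed outside the DEGs, 8 became DEGs, 11 no longer were and 2 changed sign. A value counted as kept can still have crossed the FDR alone, as *Bmp6* on day 7 against sham did on library sizes alone and on both TPM scales. With a library left out, the numbers were 304, 10, 9 and 1. The sign changes were those of *Gdf15* from day 1 to day 7, at 0.0556 on log2(TPM + 1), 0.07634 on log2(TPM + 0.1) and 0.023 without day 1 replicate 1, and leaving out a library took that value from −0.6848 to 0.023. None of these 3 values passed the FDR, and their cause was not tested.

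Of the 9 genes, the number higher in day 1 AMI against sham was between 4 and 6 and in day 7 AMI against sham between 4 and 7 over all alternatives. The number that rose from day 1 to day 7 was 2 without the filter, when *Grem1* was tested too, and on both TPM scales and without the FC minimum, when *Bmp4* was counted. The number that fell was 0 on both TPM scales and 1 to 2 with a library left out, with 2 without day 7 replicate 1. Against sham, 1 was lower in either AMI group without the FC minimum, and on day 1 that number ran from 0 to 1 with a library left out. *Inhbb* in day 7 AMI against sham, at an edgeR FDR of 0.0605, was a DEG without the filter (log2 FC 1.05, FDR 0.0288), in a fit of only these groups (1.03, FDR 0.0338) and on log2(TPM + 0.1) (1.33, limma FDR 0.0144). *Bmp2* in day 7 AMI against sham was short of 2-fold with DESeq2 (log2 FC 0.99) and RLE factors (0.98).

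Of the other pathway genes tested, 16 were higher on day 1 against sham on library sizes alone and on log2(TPM + 1), 17 on log2(TPM + 0.1) and 22 without the FC minimum. The number lower was 0 on both TPM scales, 1 in a fit of only these groups and 11 without the FC minimum. From day 1 to day 7, 28 rose and 11 fell without the FC minimum, and 1 fell on both TPM scales. On day 7 against sham, 32 were higher and 9 lower without the FC minimum, 1 was lower on library sizes alone and 0 on both TPM scales.

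Over all genes tested, 64 and 122 were lower on day 1 against sham on log2(TPM + 1) and log2(TPM + 0.1), 134 and 181 fell from day 1 to day 7, and 113 and 179 were lower on day 7 against sham, where 3575 were higher on log2(TPM + 0.1). The median of all genes moved on the TPM scales to 0.27 and 0.32 on day 1 and to 0.47 and 0.55 on day 7 against sham, and to 0.19 and 0.22 from day 1 to day 7. Without the FC minimum, 3360 genes were higher and 3043 lower on day 1, 3701 and 3496 from day 1 to day 7, and 4728 and 4353 on day 7.

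Same-numbered libraries of different groups did not deviate together. Their 12 correlations ran from −0.244 to 0.229, 4 were over 0.1, and 2 of 12 libraries correlated best with their own number. No pairing by number was seen, but with 4 hearts per group these correlations cannot exclude one. With the replicate number as a block, 5 of the 9 genes were higher on day 1 against sham, with *Fst* at a log2 FC of 0.955 (edgeR FDR 0.0394), and 1 other pathway gene was lower.

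With a library left out, the difference in the log2 ratio of *Inhba* to *Inhbb* from day 1 to day 7 ran from −0.2176 to 0.1727, that of *Inhba* to *Fst* between day 7 and sham from −0.6059 to 0.1159, and that of *Inhba* to *Fstl3* between day 1 and sham from −0.1233 to 0.2018. A ratio of *Bmp4* to *Grem1* could not be given, since *Grem1* had 0 counts in 8 libraries. *Mstn* could not be fitted on the TPM scales, where it did not pass the filter. Depth limits *Grem1*, with at most 4 counts in a library, and *Mstn*, with 1 to 18.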
